A study of Mus musculus with 10 samples.

Results

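Star and 9 genes of corticosteroid synthesis, activation and reception were followed in the left ventricle of mice after transverse aortic banding (TAB), an operation that narrows the aortic arch and puts the ventricle under pressure overload. The genes are Star, Tspo, Cyp11a1, Fdx1, Cyp11b1, Cyp11b2, Hsd11b1, Hsd11b2, Nr3c1 and Nr3c2. They were taken by symbol from an array table of 19942 gene symbols and have 11 probes, of which Star has 2 and each other gene 1. The set was chosen by the TAB over sham ratio of Star, which is among the most raised genes of these samples. That ratio is therefore a description, and no test is given for it. The tissue came from male C57BL/6J mice that were 8 weeks old at surgery and had either TAB or a sham operation. Left ventricles were collected at 5 times, 3, 5, 7, 14 or 28 days later, with 1 TAB and 1 sham sample a day and 10 samples in all. The number of mice behind a sample is not given in the sources used here. One label of the TAB sample of day 14 reads 15 days, and the sample was used as day 14, as its title has it.

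Steroid hormones are made from cholesterol. Star carries cholesterol into mitochondria and is the step at which acute hormone output is set, Tspo is a protein of the outer mitochondrial membrane that binds cholesterol, and Cyp11a1 cuts the cholesterol side chain with electrons that Fdx1 delivers. Cyp11b1 and Cyp11b2 then complete corticosterone and aldosterone, which is work of the adrenal cortex. A tissue can also reactivate corticosteroids from the blood with Hsd11b1 or inactivate them with Hsd11b2. The hormones act through the glucocorticoid receptor Nr3c1 and the mineralocorticoid receptor Nr3c2, and cardiomyocytes, cardiac fibroblasts and macrophages carry both receptors to differing extents.

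The mRNA was hybridized to a 1-colour array, and the values below are intensities normalized across the 10 arrays, which have no physical unit and cannot be set against those of another probe. The median raw intensity of an array was between 34 and 57, and between 40.2% and 47.3% of probes carried the flag that was read as a spot not found. All 10 markers of cardiomyocytes were found on all 10 arrays. Of the 7 markers of the adrenal cortex on the array, 6 were not found on any array, among them Nr5a1, Mc2r, Cyp21a1 and Hsd3b1, and only Mrap was found on all 10. A spot that is not found does not show that a gene is silent. The probe of Col1a1 was found on no array, while that of Col1a2, which encodes the partner chain of type I collagen, was found on all 10.

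The spot of Star was found in every TAB sample and in no sham sample. The probe that stands for Star (PH_mM_0014554) had a normalized intensity in TAB of 163, 228, 262, 76.9 and 27.6, in the order of the days. In sham it had 6.84, 5.61, 11.6, 2.72 and 3.01. Every TAB value lay above every sham value, the highest TAB values were those of days 5 and 7, and the lowest was that of day 28. Because it was found on no sham array, the sham values are at background and only a bound of the fold can be given. With the lowest signal of any found spot as the level that a sham array could show, TAB exceeded sham at least 14.6-fold over the 5 days. That level rests on the dimmest spot of each array. With the 1st percentile of found spots in its place, the bound fell to 4.73-fold, a choice of level that changes it by more than 1.5 times. Against the latter level of the sham array of the same day, the TAB value was 8.60-fold, 7.59-fold, 7.70-fold, 3.04-fold and 1.55-fold in the same order. The deposited detection p-value of this probe was between 0.111 and 0.951 on the TAB arrays and so passed 0.05 on none of them.

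The second probe of Star (mMR030894) was dimmer, and its spot was found on no sham array. It had a normalized intensity of 17.2, 41.2, 41.3, 20.4 and 8.59 in TAB on days 3, 5, 7, 14 and 28, and of 5.06, 9.68, 10.4, 1.63 and 6.51 in sham. TAB was higher than the sham sample of the same day on all 5 days, but the TAB value of day 28 lay below the sham values of days 5 and 7. The spot was found on the TAB arrays of days 5 and 7 alone, so on days 3, 14 and 28 both values are at background and no direction is read. With this probe and the lowest found signal as the level, the bound over the 5 days was 2.66-fold, a value that counts 3 TAB spots not found. Against the 1st percentile level of the sham array of the day, the TAB value was 1.37-fold on day 5 and 1.22-fold on day 7, and lay under that level on the other 3 days. With its first probe and the sham values as measured, Star held rank 3 of 16113 genes by mean log2 ratio, behind Timp1 and Lox, a rank that rests on sham values at background.

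**Figure D1:**
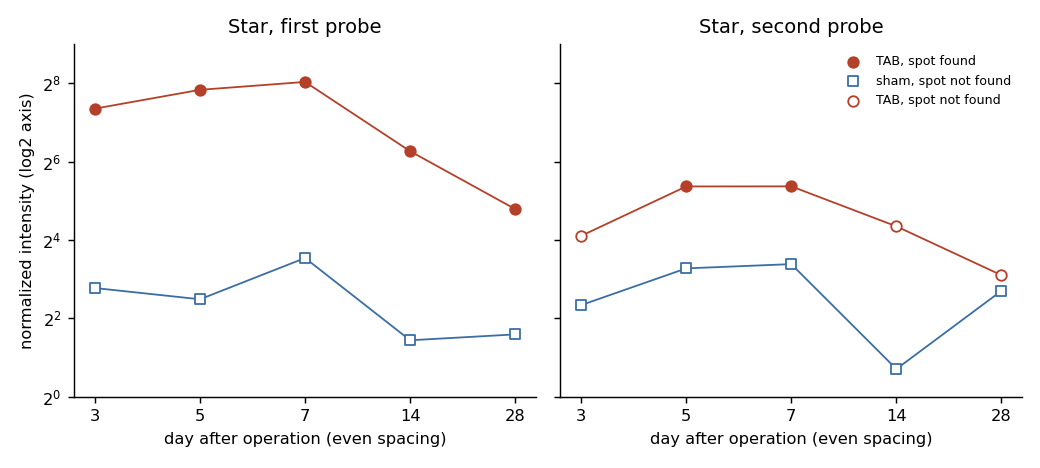
Normalized intensity on a log2 axis (vertical) of the 2 probes of Star against the day after the operation (horizontal, evenly spaced), with 1 sample per point. Circles are TAB and squares sham, and open symbols are spots that were not found. The first probe was found in every TAB sample, between 27.6 and 262, and in no sham sample, and the second on TAB days 5 and 7 alone.

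Tspo was the member with a clear change in a well-measured signal: it rose 2.18-fold in TAB over the 5 days. Its normalized intensity in TAB was 1253, 1357, 1329, 844 and 793 in the order of the days. In sham it was 493, 436, 517, 567 and 488. All 5 TAB values exceeded all 5 sham values, and the 3 earlier TAB values exceeded the 2 later ones. The spot was found on all 10 arrays, with a deposited detection p-value under 0.05 on each. The mean log2 ratio was 1.12 (SE 0.19, 95% confidence interval 0.66 to 1.59), with a limma p-value of 0.0226 after Benjamini-Hochberg adjustment over 16113 genes. The log2 ratios of the days were 1.35, 1.64, 1.36, 0.58 and 0.70. Each of these exceeded the largest difference between any 2 of the 5 sham samples, which was 0.38. The mean log2 ratio of days 3 to 7 exceeded that of days 14 and 28 by 0.81 (95% confidence interval 0.28 to 1.34). This difference had an unadjusted limma p of 0.0108 and an adjusted p of 0.399, so it did not pass the correction. No gene of the array passed it: the percentage called was 0%, with 1766 genes at an unadjusted p under 0.05. The call of Tspo was lost without day 3, day 5 or day 7 (adjusted p between 0.0702 and 0.0830), while its mean log2 ratio stayed between 1.00 and 1.26 under all alternatives. Without day 3, 5 and 7, limma called 30, 98 and 22 of the 16113 genes.

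Markers of macrophages and fibroblasts were mostly called higher in TAB, against 9.19% of all genes. Over all genes, limma called 30, 98, 22 and 947 of 16113 without day 3, 5, 7 and 14. With probes below 1 kept it called 677 of 19942. All 8 macrophage markers in the fit rose (0 were called without day 3, 5 or 7, 5 without day 14 and 4 with probes below 1 kept), and their summed normalized intensity ranged from 9471 to 22565 in TAB and from 5538 to 6812 in sham. On the log2 scale the ratio of these sums was 1.51, 1.73, 1.71, 1.11 and 0.51 on days 3, 5, 7, 14 and 28. Of the 8 fibroblast markers in the fit, 6 rose (between 1 and 5 were called without 1 day), and their sum ranged from 29540 to 47236 in TAB and from 19896 to 23221 in sham. The log2 ratio of the fibroblast sums was 0.95, 1.13, 1.04, 0.93 and 0.51 in the order of the days. Unlike Star and Tspo, the fibroblast sum in TAB was higher on day 14 (44314) than on day 3 (38310). The sum of the 10 cardiomyocyte markers was between 260494 and 270230 in TAB and between 274644 and 304628 in sham. The brightest probes weigh most in this sum. The median log2 ratio of the 10 markers was -0.12, -0.40, -0.37, -0.10 and -0.07 in the order of the days. Of these markers, 1 was called lower, Mb (log2 ratio -0.68, limma adjusted p = 0.0233), but not with its brightest probe (-0.04, limma adjusted p = 0.836). The sum of the 10 endothelial markers overlapped between the groups, as did those of the 8 adipocyte and the 3 adrenocortical markers in the fit. In ventricle tissue, a change in the number of cells of a type and in the RNA per cell cannot be told apart. The part of the macrophage and fibroblast markers in the values of Star and Tspo was not tested.

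**Figure D2:**
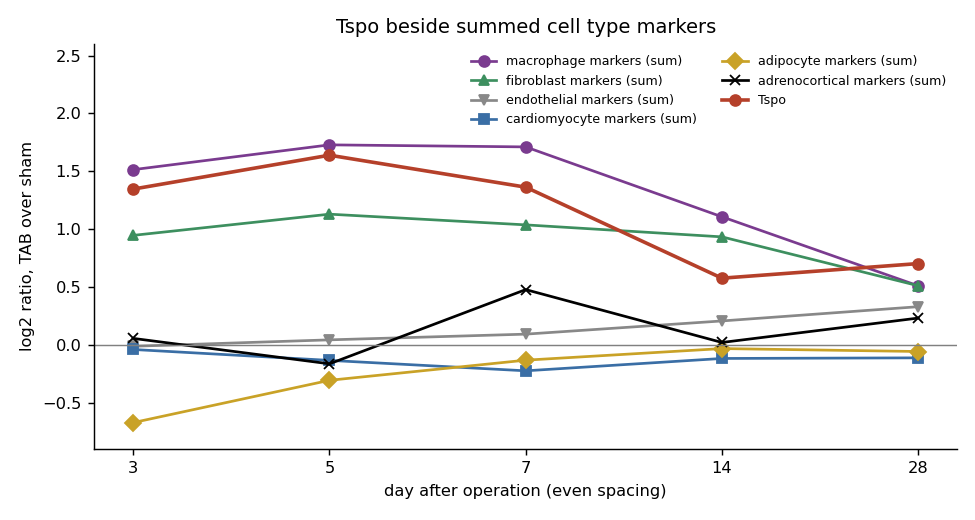
Log2 ratio of TAB over sham (vertical) against the day after the operation (horizontal, evenly spaced) for Tspo and for the summed normalized intensity of the markers of 6 cell types, with 1 TAB and 1 sham sample behind each point. On days 3, 5 and 7 Tspo stood between 1.35 and 1.64 and the macrophage sum between 1.51 and 1.73, and the cardiomyocyte sum stayed between -0.23 and -0.04. That sum is weighted to its brightest probes, and the median log2 ratio of the cardiomyocyte markers, not drawn, was -0.12, -0.40 and -0.37 on these days.

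The enzymes that make corticosteroids were not measurable, apart from their electron carrier. The raw intensity of Cyp11a1 was between -2 and 4 in TAB and between -3 and 2 in sham, and that of Cyp11b1 between 1 and 6 and between -1 and 4. Neither spot was found on any array, and both probes left the fit because they fell below the minimum intensity. Cyp11b2 stayed in the fit with a normalized intensity of 5.98 to 11.0 in TAB and 11.4 to 15.5 in sham, but its spot was also found on no array. The fit placed it among the genes called (limma adjusted p = 0.0376), but both groups lie at background and no direction or fold is read from it. Fdx1, whose protein also serves other mitochondrial reactions, was bright and found on all 10 arrays. It had a normalized intensity of 4092, 2998, 3210, 3391 and 3891 in TAB on days 3, 5, 7, 14 and 28, and of 4210, 3856, 3163, 4067 and 3902 in sham. The groups overlapped, and the mean log2 ratio was -0.13 (95% confidence interval -0.40 to 0.14, limma adjusted p = 0.445).

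The enzyme that inactivates corticosteroids fell, and for the enzyme that reactivates them no change passed the test. Hsd11b2 had a normalized intensity of 51.3, 52.0, 47.3, 51.3 and 64.6 in TAB on days 3, 5, 7, 14 and 28. In sham it had 79.3, 72.9, 101, 73.8 and 107. Every TAB value lay below every sham value, and the sham samples spread more widely than the TAB samples. The mean log2 ratio was -0.69 (SE 0.13, 95% confidence interval -1.002 to -0.38), so that sham was 1.62-fold higher, with a limma adjusted p of 0.0250. The log2 ratio ranged from -1.10 on day 7 to -0.49 on day 5, and on 3 of 5 days it exceeded the largest difference of 0.55 between sham samples. The probe is dim: the spot was found on all 10 arrays, but the deposited detection p-value was under 0.05 on 2 sham arrays and on no TAB array. With 50 added to the intensity the mean log2 ratio was -0.40 and stayed called (limma adjusted p = 0.0114). The call was lost without day 3, 5, 7 or 14 (adjusted p between 0.0536 and 0.0828) and with probes below an intensity of 1 kept (adjusted p = 0.0533). Over all genes, limma called 30, 98, 22 and 947 of 16113 without day 3, 5, 7 and 14, and 677 of 19942 with those probes kept. Hsd11b1 had a normalized intensity of 2268, 2337, 2375, 1916 and 2251 in TAB and of 2743, 2864, 2272, 2239 and 2557 in sham. TAB was lower on 4 of 5 days with overlapping groups, and the mean log2 ratio was -0.18 (95% confidence interval -0.44 to 0.07, limma adjusted p = 0.266).

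Neither receptor passed the test. The glucocorticoid receptor Nr3c1 had a normalized intensity of 528, 363, 459, 515 and 505 in TAB on days 3, 5, 7, 14 and 28. In sham it had 344, 359, 448, 609 and 531. The ratio was above 0 on days 3, 5 and 7 and below 0 on days 14 and 28, with a log2 ratio of 0.62 on day 3 and between -0.24 and 0.03 on the other days. The mean log2 ratio was 0.07 (95% confidence interval -0.29 to 0.43, limma adjusted p = 0.775) and turned to -0.067 without day 3. The difference between the earlier and the later days was 0.38 (95% confidence interval -0.32 to 1.08, limma adjusted p = 0.606). The mineralocorticoid receptor Nr3c2 had 109, 85.2, 93.0, 65.8 and 113 in TAB and 45.8, 124, 148, 139 and 129 in sham. It was lower in TAB on 4 of 5 days and higher on day 3, the day on which its sham sample had the lowest of all 10 values. Its mean log2 ratio was -0.25 (95% confidence interval -1.06 to 0.57, limma adjusted p = 0.639), a range that holds a fall as well as a rise. Without 1 day the mean lay between -0.62 without day 3 (limma adjusted p = 0.107) and -0.04 without day 14 (limma adjusted p = 0.953).

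**Figure D3:**
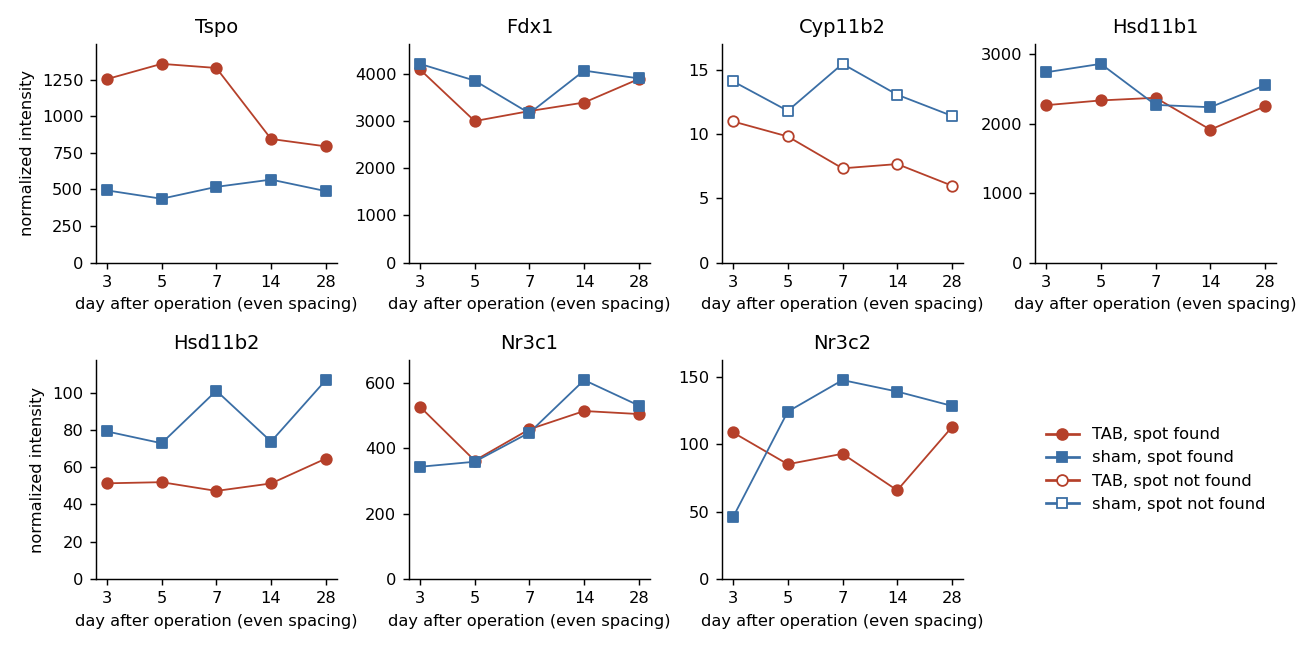
Normalized intensity (vertical, from 0, with a scale of its own in each panel) of the 7 other genes in the fit against the day after the operation (horizontal, evenly spaced), with 1 sample per point. Circles are TAB, squares sham and open symbols spots that were not found. Tspo was higher in every TAB sample (793 to 1357 against 436 to 567) and Hsd11b2 lower (47.3 to 64.6 against 72.9 to 107), while TAB and sham overlapped for Fdx1, Hsd11b1, Nr3c1 and Nr3c2.

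Among the 7 genes other than Star that entered the fit, limma thus called 3, Tspo as higher, Hsd11b2 as lower, and Cyp11b2 at background. Over all 16113 genes it called 17.1%, with 9.19% higher and 7.87% lower in TAB. The same 3 genes had TAB and sham values that did not overlap, against 17.7% of all genes. On a single day the call rule asked for an absolute log2 ratio above 2 SDs of the ratios of all genes, a threshold between 1.38 on day 28 and 1.93 on day 5. None of the 35 ratios of the 7 genes passed it, while the rule called 5.21%, 5.52%, 5.66%, 5.67% and 5.88% of all genes, in the order of the days. With a fixed threshold of 1 on the log2 scale instead, 7 of the 35 ratios passed, against 16.4% of the ratios of all genes. Tspo gave those of days 3, 5 and 7, and 1 of the 7 was that of Cyp11b2, at background. A ratio of a single day has no replicate check.

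**Figure D4:**
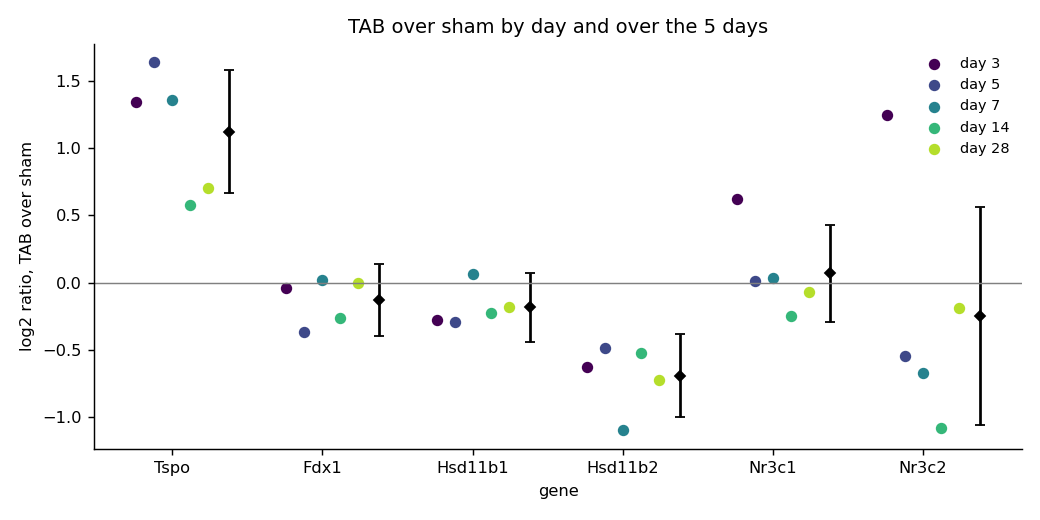
Log2 ratio of TAB over sham (vertical) of the 6 genes other than Star that were found on all 10 arrays. Coloured points are single days with 1 TAB and 1 sham sample each, and black diamonds with bars are the limma mean over the 5 days with its 95% confidence interval. The interval lies above 0 for Tspo (0.66 to 1.59), below 0 for Hsd11b2 (-1.002 to -0.38) and across 0 for the other 4.

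The other genes of steroid synthesis, the rest of the pathway that Star feeds, held no called gene. Of 15 listed genes, 12 were on the array, 10 entered the fit and 6 of these were found on all 10 arrays. None was called in either direction, a count that says little in a list this short where 17.1% of all genes were called, and the median log2 ratio was -0.01, against -0.03 over all genes. Hsd3b1, Cyp21a1 and Cyp19a1, which take part in making progesterone, corticoids and oestrogens, were found on no array. Cyb5, an electron carrier that was found on all 10 arrays, had a log2 ratio of -0.15 (limma adjusted p = 0.433), and Por, the reductase of microsomal P450 enzymes and also found on all 10, had 0.01 (limma adjusted p = 0.970).

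Genes of cholesterol supply to Star were called upwards for 3 of 18 in the fit and downwards for none, against 9.19% higher and 7.87% lower over all genes, and the median log2 ratio was 0.28 against -0.03. The count was 1 higher with probes below 1 kept, and 5 higher and 2 lower with 50 added to the intensity. Lipe, the hormone-sensitive lipase that also frees cholesterol from its esters, rose 2.03-fold (log2 ratio 1.02, SE 0.22, limma adjusted p = 0.0323) and was higher on all 5 days. Its spot was found on 5 TAB and 4 sham arrays, and with 50 added to the intensity its log2 ratio was 0.47 (limma adjusted p = 0.0126). Stard5, a soluble sterol carrier with the same lipid-binding fold as Star, rose 1.69-fold (log2 ratio 0.76, SE 0.12, limma adjusted p = 0.0197). Npc2, which hands cholesterol out of lysosomes, rose 1.49-fold (log2 ratio 0.57, SE 0.13, limma adjusted p = 0.0353) by the probe with the largest ratios. It did not pass with its brightest probe (log2 ratio 0.39, limma adjusted p = 0.190), with the mean of its probes (0.0678) or with probes below 1 kept (0.0698). Lipe is also a marker of adipocytes, of which 2 of 8 in the fit rose, Lipe and Cfd, and none was called lower. Both lost the call with probes below 1 kept (limma adjusted p = 0.0649 and 0.0693) and without day 3, 5, 7 or 14. The summed adipocyte markers were lower in TAB on all 5 days, with log2 ratios of -0.67, -0.31, -0.13, -0.03 and -0.06, but the median log2 ratio of the 8 markers was 0.33, 0.26, -0.10, 0.03 and 0.50. Fabp4, which was lower on all 5 days, had a log2 ratio of -0.51 over the 5 days (limma adjusted p = 0.106). Of the genes not called, Vdac1, the channel of the outer mitochondrial membrane, had a log2 ratio of 0.03 (limma adjusted p = 0.844) and Stard7, a lipid carrier, -0.22 (limma adjusted p = 0.149).

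The genes known to regulate Star did not share a direction. Of 19 in the fit, 1 was called higher and 2 lower, against 9.19% and 7.87% of all genes, a share near the background. The median log2 ratio was -0.09. Cebpa, a transcription factor that binds the Star promoter in steroid-making cells, rose 1.81-fold (log2 ratio 0.86, SE 0.22, limma adjusted p = 0.0463), and was higher on the first 4 days and not on day 28, where its log2 ratio was -0.12. Gata6 fell by 0.49 on the log2 scale (SE 0.11, limma adjusted p = 0.0384). Akap1, which anchors protein kinase A at mitochondria, fell by 0.63 (SE 0.16, limma adjusted p = 0.0485). Both were lower on all 5 days, but neither passed the test under median scaling only (limma adjusted p = 0.107 and 0.0685), under normalization within each operation (0.0854 and 0.0680) or with probes below 1 kept (0.0751 and 0.0875). Cebpa also lost its call with those probes kept (limma adjusted p = 0.0847). Gata6 was not called when any 1 day was left out (limma adjusted p between 0.0625 and 0.115). Prkaca and Prkar1a, the main catalytic and regulatory subunits of that kinase, had log2 ratios of -0.05 and 0.08 and were not called (limma adjusted p = 0.752 and 0.711). Nr5a1, the factor that drives steroid genes in the adrenal cortex and gonads, was found on no array, nor were Nr5a2, Creb1 and the corticotropin receptor Mc2r.

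The target genes of the corticosteroid receptors differed in direction from day to day. All 18 were found on all 10 arrays, and over the 5 days 1 was called higher and 1 lower, against 9.19% and 7.87% of all genes, with a median log2 ratio of -0.07. The count was 3 higher and 1 lower with 50 added to the intensity, without probes not found on some array and without the lowest tertile. On day 5, 14 of the 18 were lower in TAB, with a median log2 ratio of -0.91, and on day 14, 14 of the 18 were higher, with a median of 0.65. On days 3, 7 and 28 the medians were -0.37, 0.38 and -0.09, while those of all genes lay between -0.06 and -0.003 on the 5 days. The sham sample of day 5 stood highest: its median deviation from the gene means over the 10 samples was 0.59 on the log2 scale, against -0.20 in TAB of that day. On day 14 the deviation was 0.19 in TAB and -0.20 in sham. Zbtb16, a transcription factor named after its values were seen, had a normalized intensity of 117, 228, 224, 482 and 447 in TAB and of 196, 771, 197, 88.2 and 607 in sham. The sham samples of days 5 and 28 exceeded those of the other 3 days, and with 1 sample a day a time effect and a difference between single samples cannot be told apart. Dusp1, a phosphatase of MAP kinases, fell by 1.25 on the log2 scale (SE 0.20, limma adjusted p = 0.0210), so that sham was 2.38-fold higher, with log2 ratios from -1.99 on day 3 to -0.66 on day 28. Cdkn1a, an inhibitor of the cell cycle, rose 1.57-fold (log2 ratio 0.65, SE 0.16, limma adjusted p = 0.0405) and was higher on all 5 days, and its adjusted p was 0.0776 with probes below 1 kept. It was not called when any 1 day was left out (limma adjusted p between 0.0638 and 0.116). Both genes also answer to many other signals. Mt1, a metallothionein, had a log2 ratio of 0.39 (limma adjusted p = 0.103) and Klf9, a transcription factor, -0.44 (limma adjusted p = 0.308). Of the 14 partners of the receptors in the fit, 0 were called higher and 1 lower, against 9.19% and 7.87% of all genes, a share near the background. The gene called was Serpina6, the corticosteroid carrier protein of plasma, which fell by 0.61 on the log2 scale (SE 0.15, limma adjusted p = 0.0408). It did not pass under median scaling only (limma adjusted p = 0.0626), under normalization within each operation (0.0573), with probes below 1 kept (0.0779) or when any 1 day was left out. The median log2 ratio of the partners was -0.17. The chaperones Hsp90aa1 and Hsp90ab1, which hold the receptors ready for hormone, had log2 ratios of 0.47 and 0.19 and were not called (limma adjusted p = 0.140 and 0.443). Without day 3, 5 or 7, limma called none of the genes of these 5 lists, and without day 14 it called 1, of cholesterol supply. Over all 16113 genes it called 30, 98, 22 and 947 without day 3, 5, 7 and 14, so few calls are left for any list.

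**Figure D5:**
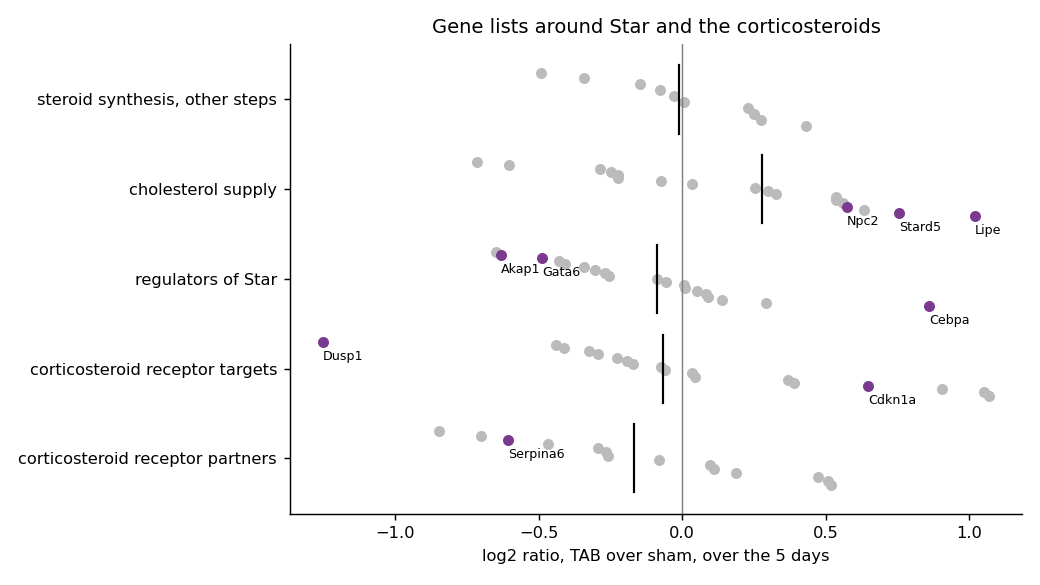
Limma mean log2 ratio of TAB over sham over the 5 days (horizontal) for every gene in the fit from 5 lists around Star and the corticosteroids (vertical). Each point is a gene, purple and named where limma called it, and black lines are the medians of the lists. Called genes lie on both sides of 0, with Dusp1 lowest at -1.25 and Lipe highest among the called at 1.02.

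The genes whose pattern was most like that of Star were sought by Pearson's r over the 10 log2 values, among 12489 other genes found on at least 5 arrays. The 8 with the highest r, from 0.978 to 0.985, were Sh3bgrl3, Capg, Cysltr1, C3ar1, 2310036O22Rik, Med11, Ccdc109b and Dync1i2. Capg caps actin filaments in macrophages and other motile cells, C3ar1 is the receptor of a complement fragment and Cysltr1 that of a leukotriene. The others, Sh3bgrl3, 2310036O22Rik, Med11, Ccdc109b and Dync1i2, had mean log2 ratios of 1.44, 0.21, 0.82, 1.55 and 0.44. No cell type is read from the list. C3ar1 had a normalized intensity of 423, 513, 442, 208 and 155 in TAB on days 3, 5, 7, 14 and 28, and between 75.3 and 105 in sham. Its mean log2 ratio was 1.82, and those of the other 7 ranged from 0.21 to 1.91. The 5 sham values of Star are at background, so the order among them is not a measured pattern. The 10 points share the split into TAB and sham and the same arrays, and 190 genes had an r of at least 0.95, so a high r does not single out a gene.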

How the data were processed

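The authors deposited 1-colour array intensity per probe and sample, from GenePix, background-subtracted in a way not given in the sources used here and not scaled across arrays. The deposited detection p-value, of unstated computation, made no call here, and a negative flag was read as a spot not found. No column was left without a sample. The 26423 probes carry 19942 symbols, kept as deposited, and 3633 probes have none. Arrays were scaled to a common median, probes below 1 in any sample were removed (19976 stayed), the 10 arrays were brought to 1 distribution (quantiles, median at each rank), and log2 was taken. A gene was represented by the probe whose absolute log2 ratios summed highest, which left 16113 genes and 8 of the 10 members.

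The mean TAB effect, and how it differed from days 3, 5 and 7 to days 14 and 28, were tested with limma 3.58.1 in R 4.3.3 (lmFit and eBayes, trend and robust off) with a block for day and a Benjamini-Hochberg threshold of 0.05, after tests on simulated data. Same-day TAB and sham samples deviated from their groups with r between -0.0165 and 0.113 over genes, so the pairing comes from the labelled day. The p-values measure the spread between single samples of different days, which may be technical in part, and precision is limited by the number of arrays. A fold against spots not found sets the TAB mean against, per sham array, the higher of the lowest found signal and the value of the probe. Named are all members, the called genes of each list (up to 6) with up to 2 others of the highest mean intensity, which only picks names, and the 8 genes most like Star. Members and lists were chosen with earlier results of these data known. Python 3.11.15 with numpy 2.4.6, pandas 2.3.3 and matplotlib 3.10.9 was used.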

Additional observations from a re-analysis of the deposited data

Results flagged for a closer look

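The 5 TAB and the 5 sham log2 intensities of each member in the fit were searched for a sample that stands apart, in 16 groups, of which chance flags about 1 in 20. In 2 groups the lowest sample had a gap to its neighbour that exceeded Dixon's critical value of 0.71 of the whole range. For Nr3c2 this was the sham sample of day 3, with a log2 intensity of 5.52 and a gap of 0.852 of the range, and it is the sample behind the only day on which Nr3c2 was higher in TAB. For Hsd11b1 it was the TAB sample of day 14, with a log2 intensity of 10.90 and a gap of 0.751 of the range.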

How the results depend on the processing

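Under 16 alternatives the number of genes called, 2749 in the reported setting, moved to 4469 with 50 added to the intensity, 677 with probes below 1 kept and 4194 with trend and robust on, and without 1 day to between 22 and 2753. The 3 calls among the members other than Star became 1 with probes below 1 kept, and between 0 and 2 without 1 day. Median scaling moved the share of higher calls from 53.9% to 67.6%, normalization within each operation to 66.3%, keeping probes below 1 to 67.8%, and leaving out day 3, 5 or 7 to 96.7%, 87.8% and 90.9%. The difference between earlier and later days, called for no gene, was called for 10 with 50 added, 18 without probes not found on some array, 7 without the lowest tertile by intensity, 5 without the day block and 34 with trend and robust on. The mean log2 ratio of Star, taken on sham values at background and so no exact fold, was 4.49 and became 1.68 with 50 added, 3.23 with the mean of its probes and 1.98 with its other probe, and Star left the fit where dim or not found probes were removed. Its bound of 14.6-fold became 4.73 with the 1st percentile and 2.66 with the other probe, and without 1 day lay between 11.8 and 21.1. The 0 calls on single days among the members became 3 of 35 with 50 added (4.68% of all ratios), 4 without probes not found (4.69%), 1 without the lowest tertile (4.20%) and 7 of 35 at a log2 ratio of 1 (16.4%). Without probes not found and without the lowest tertile, Cyp11b2 was not in the fit, so those counts are out of fewer than 35 ratios. The mean log2 ratio of Nr3c1 lay between -0.067 (without day 3) and 0.15 (without day 14) when 1 day was left out. Tspo and Hsd11b2 kept their direction under all 16 alternatives, and so did the 9 called genes of the 5 pathway lists under all that held them. For Tspo and Hsd11b2, leaving out a day could not turn the direction, because their TAB and sham values did not overlap. Alternatives that changed only the test left every ratio as it was. The number of alternatives is therefore no separate evidence for a direction. The other probe of Star, and for its bound median scaling and each day left out, were chosen after seeing the data. No paired analysis beyond the day block was possible because the labels number no replicates; without that block 3598 genes were called, with Tspo and Hsd11b2 among them.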
